A study of Mus musculus with 6 samples.

Results

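The 10 genes described here are the cytosolic thioredoxin Txn1 and its reductase Txnrd1, the mitochondrial pair Txn2 and Txnrd2, the thioredoxin inhibitor Txnip, and 5 genes often used to read out the transcription factor NRF2, namely Srxn1, Nqo1, Hmox1, Slc7a11 and Osgin1. They were chosen by symbol from a table of 25031 genes, and all 10 were among the 15416 genes that passed a filter on low counts and were tested. RNA was sequenced from kidneys of male wild-type mice of the inbred C57BL/6 strain, aged 7 to 8 weeks. All animals had undergone 23 minutes of ischemia of both kidneys and reperfusion with body temperature held at 37 °C, and then received either 5 mg/kg of (+)CePPy, positively charged cerium-doped polypyrrole nanoparticles given by vein directly after the injury (3 libraries), or the same volume of saline as vehicle (3 libraries). Uninjured kidneys were not analysed here, so neither group is an uninjured baseline, and when the kidneys were taken after injury is not stated in the labels.

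Thioredoxins are small proteins that reduce disulfides in other proteins, and thioredoxin reductases, which are selenoproteins, recharge them with electrons from NADPH. NRF2, encoded by Nfe2l2, is held at low levels by its adaptor KEAP1. When oxidants or electrophiles modify KEAP1, NRF2 enters the nucleus. There it pairs with small MAF proteins and binds antioxidant response elements near genes of detoxification and redox defence. BACH1 is a repressor that competes for the same elements and is released from them by heme. In the kidney, ischemia and reperfusion load the tubule with oxidants, and these genes are widely used to follow the response.

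The sequences below show where letters known from the regulation of these genes lay next to the starts of the members whose levels are compared afterwards. RefSeq promoter sequences, from 250 bases before to 50 after an annotated start (GRCm38.p6), were matched by symbol for 9 of the 10 members, with 3 starts for Txnrd1; Hmox1 had no match. Both strands were searched for the core of the antioxidant response element, TGACNNNGC, for the NRF2 and small MAF element TGANTCAGC, for a carbohydrate response element, here 2 CACGNG boxes with 5 bases between them, and for the C/EBP and ATF element TGATGNAA. These motifs overlap, as a single site can match both the first and the second. Of 32851 promoters of 300 bases, 12.4% held the first, 1.19% the second, 0.0487% the third and 3.97% the last. Promoters with a match are printed 5′ to 3′ on the gene's strand, with the matched letters in capitals.
Srxn1, chr2:152105274-152105573, plus strand: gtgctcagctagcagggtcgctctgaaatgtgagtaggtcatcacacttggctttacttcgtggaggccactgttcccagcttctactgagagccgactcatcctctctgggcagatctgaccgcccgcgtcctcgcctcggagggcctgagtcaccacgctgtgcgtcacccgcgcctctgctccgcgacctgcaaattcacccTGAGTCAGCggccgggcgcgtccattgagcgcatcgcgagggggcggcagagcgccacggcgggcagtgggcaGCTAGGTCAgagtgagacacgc
Txnrd1, the second of its starts, chr10:82858956-82859255, plus strand: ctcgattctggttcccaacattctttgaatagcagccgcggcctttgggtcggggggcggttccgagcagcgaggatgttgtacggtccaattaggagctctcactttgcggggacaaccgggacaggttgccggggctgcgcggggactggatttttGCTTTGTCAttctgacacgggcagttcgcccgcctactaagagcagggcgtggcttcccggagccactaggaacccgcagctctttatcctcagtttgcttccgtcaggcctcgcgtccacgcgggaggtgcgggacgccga
Osgin1, chr8:119436897-119437196, plus strand: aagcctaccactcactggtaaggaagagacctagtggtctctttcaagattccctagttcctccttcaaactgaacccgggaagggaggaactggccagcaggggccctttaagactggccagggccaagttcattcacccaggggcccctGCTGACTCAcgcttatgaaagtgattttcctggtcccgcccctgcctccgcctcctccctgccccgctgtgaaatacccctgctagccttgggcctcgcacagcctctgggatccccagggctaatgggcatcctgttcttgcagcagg
Slc7a11, chr3:50443564-50443863, minus strand: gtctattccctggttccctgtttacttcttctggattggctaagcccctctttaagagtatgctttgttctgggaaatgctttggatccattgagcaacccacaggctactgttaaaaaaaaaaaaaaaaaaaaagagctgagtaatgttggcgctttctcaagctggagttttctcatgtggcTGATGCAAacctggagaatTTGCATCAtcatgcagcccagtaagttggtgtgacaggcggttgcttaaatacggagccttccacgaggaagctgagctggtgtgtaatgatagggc
Txnip, chr3:96557707-96558006, plus strand: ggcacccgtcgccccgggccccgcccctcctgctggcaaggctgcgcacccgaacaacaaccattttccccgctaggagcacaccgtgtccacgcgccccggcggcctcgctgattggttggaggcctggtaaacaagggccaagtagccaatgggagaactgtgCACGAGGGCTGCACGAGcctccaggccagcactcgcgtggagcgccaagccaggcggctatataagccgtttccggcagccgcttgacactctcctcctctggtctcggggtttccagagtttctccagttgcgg
Positions are those of the leftmost base of a match, with -1 the base before the start. In Srxn1 the NRF2 and MAF element began at -45 and an antioxidant response core on the opposite strand at 29. Txnrd1 held the core on the opposite strand at -92, and Osgin1 the NRF2 and MAF element on the opposite strand at -99. Slc7a11 held the C/EBP and ATF element at -66 and again, on the opposite strand, at -47. Txnip held the letters of the carbohydrate response element at -85, one of 16 such promoters in the table. Nqo1, Txn1, Txn2, Txnrd2 and the other starts of Txnrd1 had none of the motifs in this window, which says only that these letters do not lie there, and a match is a description of letters and not of binding.

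Total counts ranged from 29762157 to 37415213 per library, and 1 count equalled 0.0266 to 0.0333 CPM, the usual depth-scaled unit of counts, here on TMM-scaled library sizes. Libraries of a group differed from each other by more than counting noise. The number of genes edgeR called, 1, depended on single libraries: leaving out CePPy 2 gave 811, vehicle 2 gave 6, CePPy 1 gave 2, and CePPy 3, vehicle 1 or vehicle 3 gave 0. Whether each library is a separate animal is not stated, so the spread behind each p-value may be technical. Proximal tubule markers, 8 of 8 above 0 in every library, summed to 3677 to 8158 CPM in CePPy and 3110 to 3285 CPM in vehicle, as a check of the labelled tissue. CePPy 1 stood apart in these markers, at 8158 CPM against 3677 and 5461 CPM in CePPy 2 and CePPy 3, and it held the lowest sum of 5 tubular injury genes, 1377 CPM against 3083 and 2079 CPM in the other CePPy libraries.

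Setting CePPy against vehicle addresses how these redox transcripts differ when injured kidneys have received the nanoparticles. Of the 10 members, 9 had lower values and 1, Osgin1, higher values after CePPy, with a median log2 fold change of -0.53 against 0.00297 over all genes tested. For 8 members every CePPy library lay below every vehicle library, a separation found in this direction for 14% of genes tested, and for Osgin1 every CePPy library lay above, as for 12.3% of genes. None of the 10 passed edgeR's quasi-likelihood test at an adjusted p under 0.05 over all genes, where 0.00649% of genes passed. An unadjusted p under 0.05 was reached by 8 members in the lower direction, against 9.37% of genes, and by 1 in the higher direction, against 9.65%. DESeq2 called 6 members lower over all genes, namely Nqo1, Hmox1, Srxn1, Txnrd1, Txn1 and Slc7a11, where it called 3.43% of genes lower and 3.64% higher. With no filter on low counts, edgeR called Hmox1 and Srxn1, against 0.185% of genes called lower. Without CePPy 2, edgeR called these 6 except Nqo1, against 2.19% of genes called lower. The members were chosen with earlier results of these data known, so their counts beside these shares are not independent evidence. In whole kidney, fewer cells of a type and less RNA per cell cannot be told apart.

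**Figure D1:**
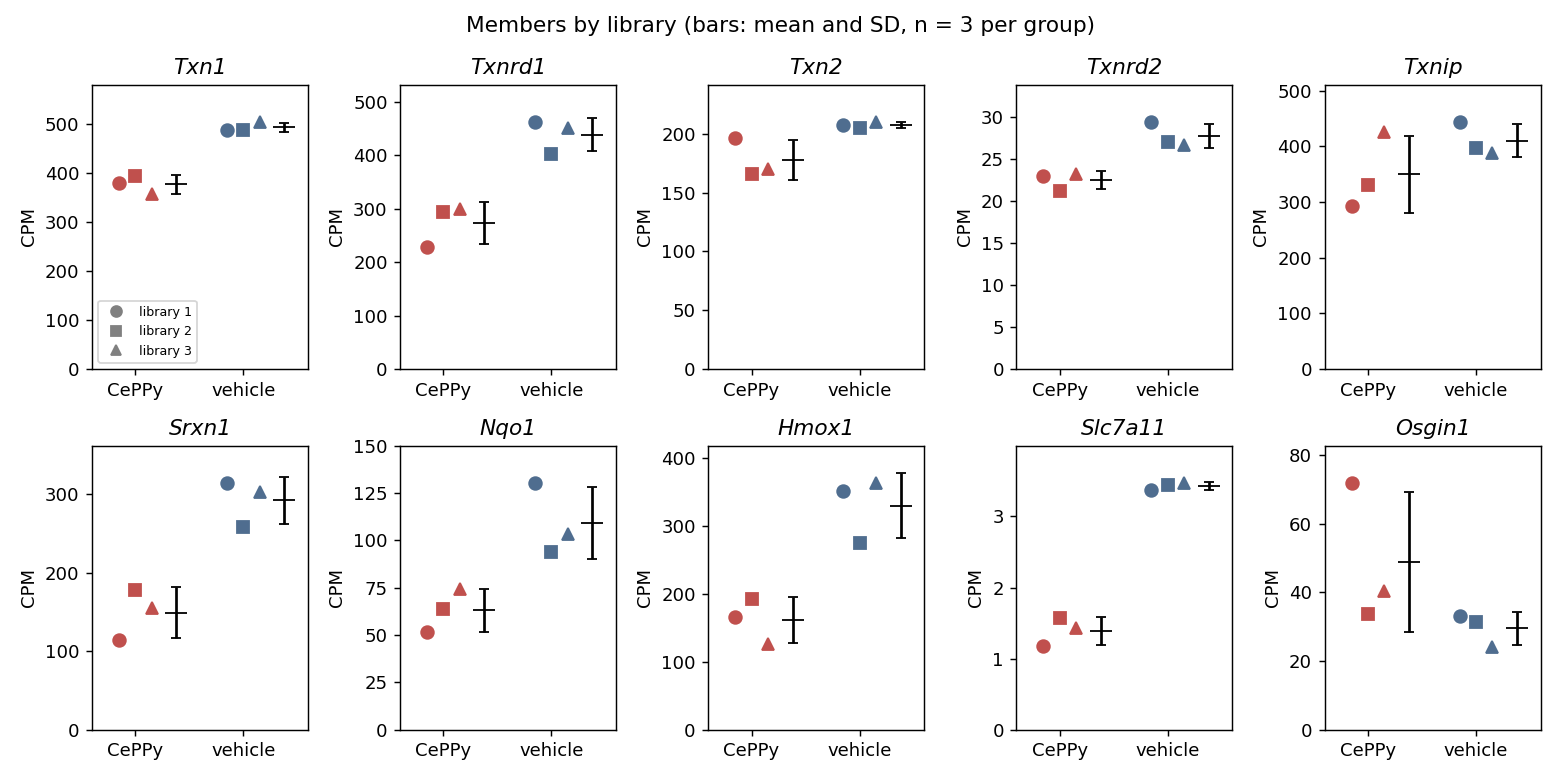
Level of each member in CPM (linear axes from 0) in the 3 CePPy libraries (red) and the 3 vehicle libraries (blue), with the mean and SD of each group in black. The CePPy points lie below the vehicle points for 8 members, overlap with them for Txnip and lie above them for Osgin1, where CePPy 1 is at 72.0 CPM.

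Txn1 (chromosome 4, 57943373 to 57956411, minus strand, GRCm38) encodes the cytosolic thioredoxin that reduces peroxiredoxins, ribonucleotide reductase and many other proteins. It measured 379.9, 393 and 356 CPM in CePPy libraries, against 487, 487 and 503 CPM in vehicle libraries. The groups were narrow and did not overlap, averaging 376 ± 18.9 CPM in CePPy and 492 ± 9.34 CPM in vehicle (SD, n = 3 each). On the log2 scale this is -0.39 (SE 0.08; edgeR adjusted p = 0.102).

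Txnrd1 (chromosome 10, 82833951 to 82897712, plus strand) encodes the selenoprotein reductase that recharges cytosolic thioredoxin. It measured 229, 294 and 299.6 CPM in CePPy libraries, against 463, 403 and 451 CPM in vehicle libraries. CePPy 1 was the lowest library, and the highest CePPy library lay well under the lowest vehicle library. Its log2 fold change was -0.68 (SE 0.12, edgeR adjusted p = 0.0884), the largest difference among the thioredoxins and their reductases.

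The mitochondrial pair also had lower values. Txn2 (chromosome 15, 77915047 to 77929006, minus strand), the thioredoxin of the mitochondrial matrix, measured 197, 166 and 170.3 CPM in CePPy libraries, against 208, 205 and 210.2 CPM in vehicle libraries. CePPy 1 came close to the vehicle values, which were nearly equal. Its log2 fold change was -0.22 (SE 0.09, edgeR adjusted p = 0.232). Txnrd2 (chromosome 16, 18426384 to 18479073, plus strand), its reductase, measured 22.9, 21.2 and 23.2 CPM in CePPy libraries, against 29.4, 27.1 and 26.7 CPM in vehicle libraries. All CePPy libraries lay below all vehicle libraries, and the log2 fold change was -0.30 (SE 0.09, edgeR adjusted p = 0.15).

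The ratio of cytosolic to mitochondrial transcript does not depend on library scaling. The log2 ratio of Txnrd1 to Txnrd2 counts was 3.32, 3.79 and 3.69 in CePPy libraries, against 3.98, 3.90 and 4.08 in vehicle libraries. The groups did not overlap and differed by -0.38, with an exact two-sided permutation p of 0.1, the smallest that 3 against 3 libraries allow; the difference was -0.24 without CePPy 1. For Txn1 to Txn2 it was 0.95, 1.24 and 1.06 in CePPy libraries, against 1.23, 1.25 and 1.26 in vehicle libraries. CePPy 2 lay inside the vehicle range, and the difference of -0.16 had an exact permutation p of 0.2 and was -0.092 without CePPy 1.

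Txnip (chromosome 3, 96557957 to 96561883, plus strand) encodes an arrestin-like protein that binds and inhibits reduced thioredoxin and restrains glucose uptake. It measured 292, 331 and 426 CPM in CePPy libraries, against 443, 397 and 389 CPM in vehicle libraries. CePPy 3 lay inside the vehicle range while CePPy 1 and CePPy 2 lay below it. The difference of -0.23 on the log2 scale (SE 0.14, edgeR adjusted p = 0.419) became -0.11 without CePPy 1 and -0.39 without CePPy 3. The log2 ratio of Txnip to Txn1 was -0.38, -0.25 and 0.26 in CePPy libraries, against -0.13, -0.30 and -0.37 in vehicle libraries. The CePPy values span those of vehicle, and the difference of 0.15 (exact two-sided permutation p = 0.7) was -0.045 without CePPy 3. Exons of Txnip share 606 bases with an annotated antisense gene, Gm15441, which was not analysed here.

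Srxn1 (chromosome 2, 152105516 to 152111376, plus strand) encodes sulfiredoxin, which restores overoxidised peroxiredoxins. It measured 114, 178 and 155 CPM in CePPy libraries, against 314, 258 and 303 CPM in vehicle libraries. The groups stood well apart, with CePPy 1 lowest. On the log2 scale Srxn1 differed by -0.97 (SE 0.16, edgeR adjusted p = 0.0813).

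Nqo1 (chromosome 8, 107388225 to 107403206, minus strand), a quinone reductase, measured 51.4, 63.7 and 74.1 CPM in CePPy libraries, against 131, 93.9 and 103 CPM in vehicle libraries. Vehicle 1 was the highest library and CePPy 1 the lowest, and the groups did not overlap. Its log2 fold change was -0.79 (SE 0.16, edgeR adjusted p = 0.102). Nqo2, its paralog, which uses a different electron donor, averaged 39.4 ± 3.65 CPM in CePPy and 41.0 ± 1.70 CPM in vehicle (log2 fold change -0.056, SE 0.09, edgeR adjusted p = 0.772), a value between -0.13 and 0.00060 with 1 library left out.

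Hmox1 (chromosome 8, 75093621 to 75100589, plus strand) encodes the inducible heme oxygenase, which opens heme to biliverdin, iron and carbon monoxide. It measured 165, 193 and 126 CPM in CePPy libraries, against 351, 275 and 363 CPM in vehicle libraries. CePPy 3 was lowest, and the groups did not overlap. On the log2 scale the difference was -1.03 (SE 0.17, edgeR adjusted p = 0.0813). The constitutive paralog Hmox2 averaged 55.9 ± 5.73 CPM in CePPy and 62.1 ± 1.11 CPM in vehicle, overlapped between groups and differed by -0.15 on the log2 scale (SE 0.09, edgeR adjusted p = 0.387), with -0.23 without CePPy 1 and -0.091 without CePPy 3.

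Hmox1 is also made by macrophages that take up heme. The 8 macrophage markers examined summed to 142 to 167 CPM in CePPy and 150 to 178 CPM in vehicle, with 3 higher and 5 lower values, all overlapping between groups, and a median log2 fold change of -0.058. The 5 erythroid genes summed to 280.4 to 406 CPM in CePPy and 297 to 366 CPM in vehicle. Neither sum separated the groups, and the part of these cells in the Hmox1 difference was not tested.

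Slc7a11 (chromosome 3, 49892526 to 50443614, minus strand) encodes the cystine importer that feeds glutathione synthesis. Its level was low: 42, 59 and 43 counts or 1.18, 1.57 and 1.43 CPM in CePPy libraries, against 121, 117 and 117 counts or 3.37, 3.44 and 3.47 CPM in vehicle libraries. The vehicle libraries were nearly equal and all CePPy libraries lay far below them. The difference of -1.30 on the log2 scale (SE 0.23, edgeR adjusted p = 0.0872) was the largest among the 10 members. Its partner chain Slc3a2, shared with other amino acid transporters, averaged 207 ± 26.5 CPM in CePPy and 194 ± 4.52 CPM in vehicle (log2 fold change 0.094, SE 0.10, edgeR adjusted p = 0.652), which was -0.013 without CePPy 1 and 0.16 without CePPy 3.

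Osgin1 (chromosome 8, 119434124 to 119446256, plus strand), an NRF2 target that encodes an oxidative stress induced growth inhibitor, was the one member with higher values. It measured 72.0, 33.9 and 40.5 CPM in CePPy libraries, against 33.2, 31.3 and 24.1 CPM in vehicle libraries. CePPy 1 stood far above the rest, and CePPy 2 lay only just above vehicle 1. The difference of 0.73 on the log2 scale (SE 0.27, edgeR adjusted p = 0.208) became 0.34 without CePPy 1. Its paralog Osgin2 averaged 7.84 ± 0.0988 CPM in CePPy and 9.20 ± 0.935 CPM in vehicle (log2 fold change -0.23, SE 0.14, edgeR adjusted p = 0.385), which was -0.15 on the log2 scale without vehicle 3. Every CePPy library of Osgin2 lay below every vehicle library, as for 14% of genes tested.

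**Figure D2:**
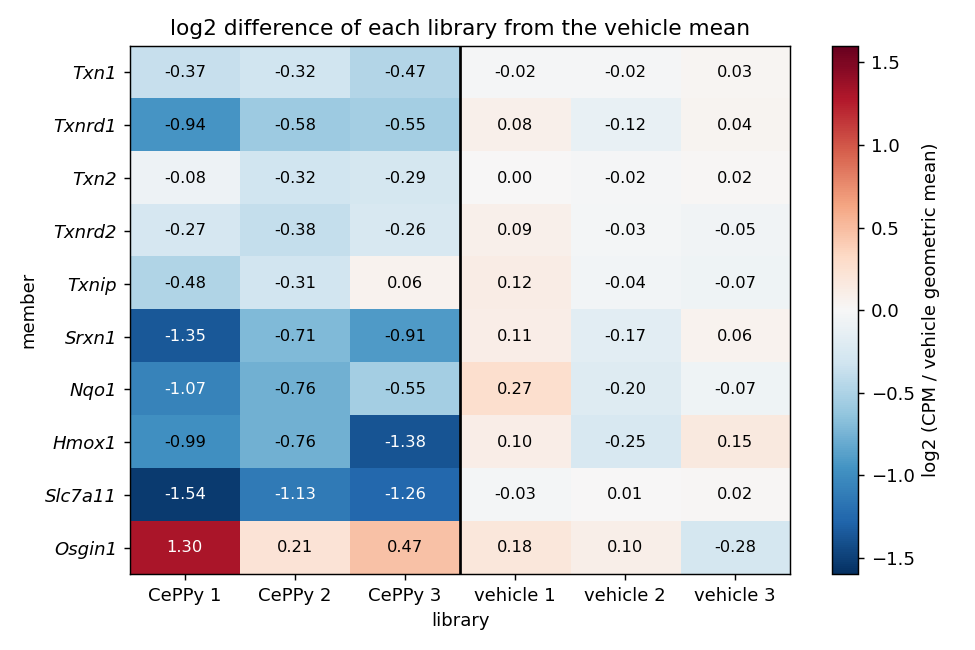
Difference of each library from the vehicle mean on the log2 CPM scale, members in rows and libraries in columns, blue for lower and red for higher. Slc7a11, Srxn1, Hmox1, Nqo1 and Txnrd1 are lower by more than 0.5 in each CePPy library, Txnip is at 0.060 in CePPy 3, and Osgin1 is at 1.30 in CePPy 1.

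Among the CePPy libraries, the members did not share 1 order. CePPy 1 held the lowest value for 5 members, namely Nqo1, Srxn1, Txnrd1, Txnip and Slc7a11, and the highest for Txn2 and Osgin1. It is also the library with the highest proximal tubule and the lowest injury marker sum, whose part in these values was not tested. CePPy 3 held the lowest value of Hmox1 and Txn1. The median of the 10 members relative to the vehicle mean was -0.71, -0.48 and -0.51 log2 units in CePPy 1, 2 and 3, against 0.094, -0.038 and 0.018 in vehicle 1, 2 and 3.

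**Figure D3:**
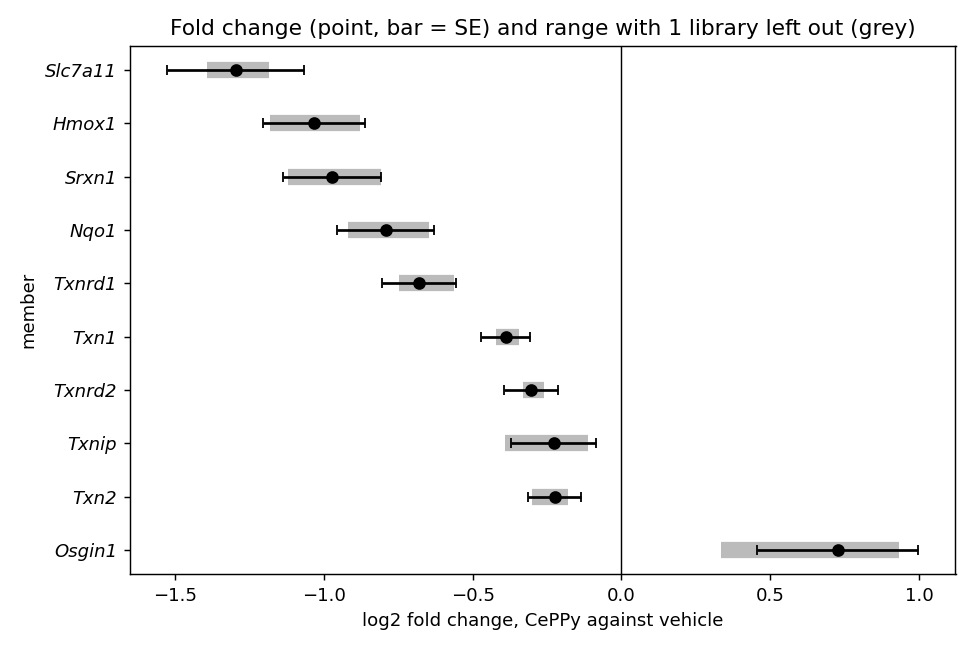
Log2 fold change of CePPy against vehicle for each member (point) with its SE (bar) and the range over the 6 fits that leave out 1 library (grey). The direction held in each of these fits, with the grey range of Osgin1 running from 0.34 to 0.93 and that of Txnip from -0.39 to -0.11.

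Levels of different genes were compared as CPM per kilobase of annotated exon, with the exons of all annotated transcripts of a gene merged. The order depends on that length, which can exceed that of the transcripts present. In vehicle the order was Txn1 at 469 ± 8.89, Hmox1 at 188 ± 27.3, Txnip at 131 ± 9.48, Srxn1 at 104 ± 10.5, Nqo1 at 70.3 ± 12.3, Txnrd1 at 62.0 ± 4.43, Txn2 at 49.4 ± 0.584, Osgin1 at 11.0 ± 1.80, Txnrd2 at 6.30 ± 0.334 and Slc7a11 at 0.246 ± 0.00393 CPM per kilobase (SD, n = 3). Only Nqo1 and Txnrd1 overlapped among neighbours in that order. In CePPy kidneys Txnip, at 112 ± 22.1, stood above Hmox1, at 92.0 ± 19.2 CPM per kilobase, but their libraries overlapped, and Srxn1, Txn2, Nqo1 and Txnrd1 ran together between 38.7 and 52.8 CPM per kilobase, each overlapping its neighbour. Txn1 was the most abundant and Slc7a11 the least abundant member in both groups.

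Genes that control NRF2 had fold changes on both sides of 0. Of 13 NRF2 regulators, 8 had lower and 5 higher values, none passed edgeR (1 in each direction at an unadjusted p under 0.05) or DESeq2, and the median log2 fold change was -0.017. Nfe2l2 itself averaged 146 ± 15.2 CPM in CePPy and 156 ± 8.38 CPM in vehicle (log2 fold change -0.096, SE 0.10, edgeR adjusted p = 0.626), and its libraries overlapped. This value was -0.0088 without CePPy 1, -0.15 without CePPy 2 and -0.050 without vehicle 2. Keap1 averaged 42.7 ± 1.89 CPM in CePPy and 43.2 ± 3.10 CPM in vehicle, which is -0.017 on the log2 scale (SE 0.08), and this sign turned when single libraries were left out. The repressor Bach1 measured 34.4, 30.0 and 31.5 CPM in CePPy libraries, against 29.4, 24.7 and 25.8 CPM in vehicle libraries, higher without overlap (log2 fold change 0.26, SE 0.10, edgeR adjusted p = 0.226). The small MAF gene Mafg had a log2 fold change of -0.16 (SE 0.09), which was -0.10 without vehicle 1 and -0.24 without vehicle 2, and Sqstm1, the autophagy receptor that sequesters KEAP1, of -0.29 (SE 0.12, edgeR adjusted p = 0.256).

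Other NRF2 targets were counted from a list of 37 genes, of which 36 were tested and Gpx2 was not. The list was drawn up with earlier results of these data known, so its direction is not independent evidence. Lower values were found for 29 and higher for 7, with a median log2 fold change of -0.43, and 0 passed edgeR, with 24 lower and 2 higher at an unadjusted p under 0.05. DESeq2 called 20 lower and 1 higher (Gstm2, a transferase gene named after its values were seen). Without overlap, 25 lay lower and 4 higher. Over all genes, DESeq2 called 3.43% lower and 3.64% higher, and 14% lay lower and 12.3% higher without overlap. At an unadjusted p under 0.05 in edgeR stood 9.37% lower and 9.65% higher. The same shares over all genes stand beside the counts of the other lists. Gsta4, a glutathione transferase for lipid peroxidation products, averaged 31.8 ± 5.11 CPM in CePPy and 90.7 ± 24.4 CPM in vehicle (log2 fold change -1.51, SE 0.21, edgeR adjusted p = 0.0739). The glutathione reductase gene Gsr averaged 197 ± 12.8 CPM in CePPy and 312 ± 23.0 CPM in vehicle (log2 fold change -0.66, SE 0.09). Gstp1, a transferase with close copies in the genome that could take some of its reads, averaged 240.3 ± 22.5 CPM in CePPy and 365 ± 11.5 CPM in vehicle (log2 fold change -0.60, SE 0.09).

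Clients and relatives of thioredoxin had values on both sides of vehicle. Of 21 genes, 13 had lower and 8 higher values, with a median log2 fold change of -0.055, 0 passed edgeR (4 lower and 1 higher at an unadjusted p under 0.05), and DESeq2 called Txnrd3 and Prdx1, 2 genes, lower. Txnrd3, the reductase best known from testis, averaged 34.0 ± 6.80 CPM in CePPy and 51.9 ± 2.97 CPM in vehicle (log2 fold change -0.61, SE 0.15, edgeR adjusted p = 0.117). Prdx1, a cytosolic peroxiredoxin that thioredoxin recycles, averaged 929.7 ± 42.3 CPM in CePPy and 1177 ± 107 CPM in vehicle (log2 fold change -0.34, SE 0.10), and the glutaredoxin gene Glrx3 had a log2 fold change of -0.34 (SE 0.10).

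Selenoprotein synthesis, on which both reductases depend, was represented by 8 genes, 5 with lower and 3 with higher values and a median of -0.057. None passed edgeR, with 1 in each direction at an unadjusted p under 0.05, and DESeq2 called 1 lower, Trnau1ap. Trnau1ap, a protein bound to the selenocysteine tRNA, averaged 37.4 ± 1.70 CPM in CePPy and 47.6 ± 3.23 CPM in vehicle (log2 fold change -0.35, SE 0.08, edgeR adjusted p = 0.117). Sepsecs, which makes selenocysteine on its tRNA, had a log2 fold change of 0.28 (SE 0.09) and the elongation factor Eefsec of -0.18 (SE 0.10), which was -0.098 without CePPy 3.

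Relatives and regulators of TXNIP divided evenly, with 4 of 8 genes higher and 4 lower and a median of 0.0084. None passed edgeR (2 higher and 0 lower at an unadjusted p under 0.05), and DESeq2 called 1 higher, Arrdc3. The arrestin-domain gene Arrdc3 measured 79.2, 65.5 and 80.1 CPM in CePPy libraries, against 49.4, 49.1 and 52.6 CPM in vehicle libraries, without overlap (log2 fold change 0.57, SE 0.10, edgeR adjusted p = 0.0813). Itch, a ubiquitin ligase that marks TXNIP for degradation, differed by 0.27 on the log2 scale (SE 0.08, edgeR adjusted p = 0.154). Arrdc4, the closest relative of Txnip, had one of -0.18 (SE 0.11, edgeR adjusted p = 0.414), which was -0.12 without CePPy 1 and -0.28 without CePPy 3.

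Cystine transport and ATF4 target genes, 9 in all, had 5 lower and 4 higher values and a median of -0.17. None passed edgeR (0 lower and 2 higher at an unadjusted p under 0.05), and DESeq2 called 2 higher. These 2, Slc7a9 and Slc3a1, form the cystine and basic amino acid transporter of the proximal tubule brush border. Slc7a9 averaged 80.8 ± 11.1 CPM in CePPy and 53.2 ± 3.01 CPM in vehicle (0.60 on the log2 scale, SE 0.11, edgeR adjusted p = 0.0884), and its partner Slc3a1 had a log2 fold change of 0.56 (SE 0.14). Sesn2, a stress gene of the sestrin family, had one of -0.22 (SE 0.12), which was -0.11 without vehicle 3.

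Heme handling genes other than Hmox1 had 8 lower and 1 higher value among 9, with a median of -0.26. None passed edgeR (6 lower and 1 higher at an unadjusted p under 0.05), and DESeq2 called 2 lower, Blvra and Slc48a1. Blvra, the biliverdin reductase that acts after heme oxygenase, averaged 67.8 ± 6.69 CPM in CePPy and 106 ± 4.33 CPM in vehicle (log2 fold change -0.64, SE 0.09, edgeR adjusted p = 0.0739). The heme transporter gene Slc48a1 averaged 217 ± 17.7 CPM in CePPy and 291 ± 21.3 CPM in vehicle (log2 fold change -0.42, SE 0.10). Hpx, the heme carrier hemopexin, was near the limit of counting, at 0.422, 0.372 and 0.667 CPM in CePPy libraries, against 0.0835, 0.147 and 0 CPM in vehicle libraries.

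**Figure D4:**
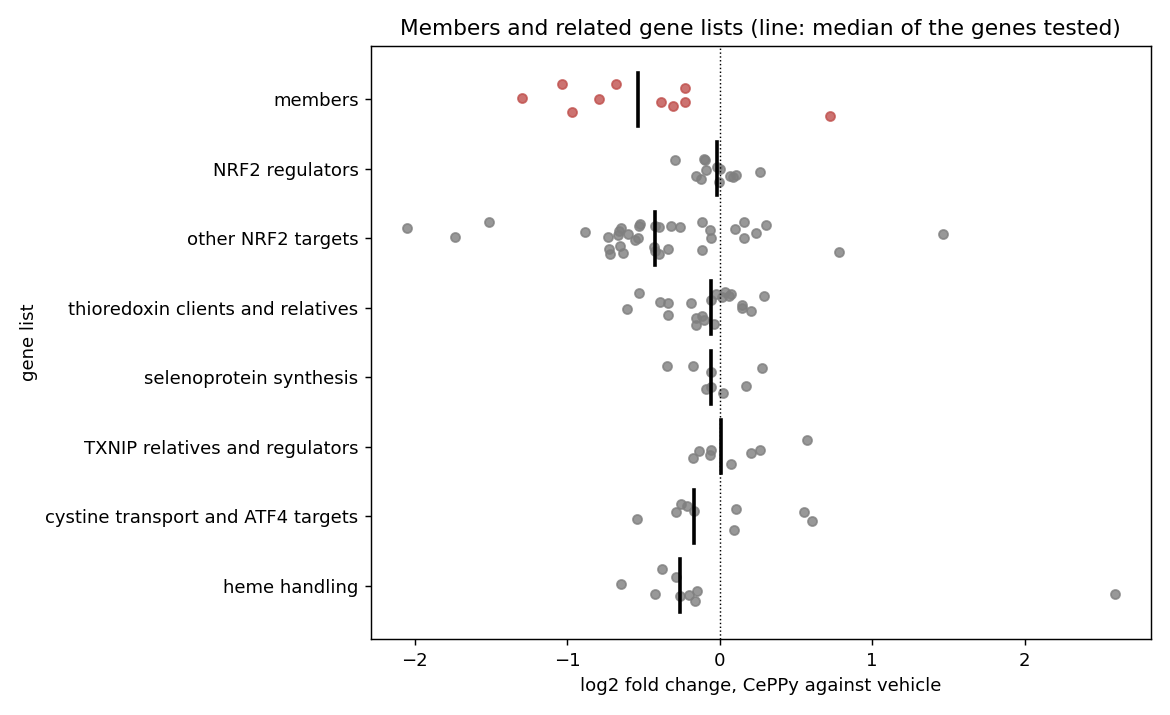
Log2 fold change of CePPy against vehicle for each tested gene (points, spread vertically for legibility) of the 10 members (red) and of the 7 related lists (grey), with the median of each as a black line. The medians of the members, at -0.53, and of other NRF2 targets, at -0.43, lie lowest, and that of NRF2 regulators is at -0.017.

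Markers of other cell types and states are given by their summed levels, and edgeR called 0 genes in each of these lists, also where values did not overlap. All 8 proximal tubule markers had higher mean values (median log2 fold change 0.59), but Lrp2, Cubn and Slc22a6 overlapped between groups. Mean values were also higher for 4 of 4 thick ascending limb genes, which summed to 3412 to 6006 CPM in CePPy and 2668 to 2982 CPM in vehicle. The 4 collecting duct genes were all higher too, at 269 to 389 CPM in CePPy and 177 to 227 CPM in vehicle. Of 5 tubular injury genes, 4 had lower values, with sums of 1377 to 3083 CPM in CePPy and 3505 to 3761 CPM in vehicle. Neutrophil genes, 6 in the list and 5 tested, were all lower, with sums of 9.67 to 22.4 CPM in CePPy and 33.4 to 50.1 CPM in vehicle. Ly6g was at 0 in CePPy 2. At an unadjusted p under 0.05 stood 5 proximal tubule, 2 thick ascending limb and 4 collecting duct genes with higher values and 2 injury and 5 neutrophil genes with lower values, of which DESeq2 called 4, 2, 2, 2 and 3. For the macrophage, erythroid, endothelial, and adrenal and fat genes both counts were 0. Over all genes, 9.37% stood lower and 9.65% higher at that unadjusted p in edgeR, and DESeq2 called 3.43% lower and 3.64% higher. Without overlap between groups, 5 proximal tubule, 3 thick ascending limb and 3 collecting duct genes lay higher. In the same way 4 injury and 4 neutrophil genes lay lower, where 12.3% of all genes tested lay higher and 14% lower. The part of these markers in the differences of the members was not tested. The 5 endothelial genes summed to 321 to 336 CPM in CePPy and 309 to 349.5 CPM in vehicle. Adrenal and fat genes were low, at 3.21 to 6.94 CPM in CePPy and 4.48 to 6.46 CPM in vehicle, with Cyp11b2 at 0 in all libraries. Of these, Star stood at 3.21, 4.92 and 3.83 CPM in CePPy libraries, against 5.82, 5.59 and 4.48 CPM in vehicle libraries. Plin1 stood at 0, 1.30 and 1.03 CPM in CePPy libraries, against 0.390, 0.118 and 0 CPM in vehicle libraries. Adipoq stood at 0, 0.718 and 1.13 CPM in CePPy libraries, against 0.250, 0.118 and 0 CPM in vehicle libraries.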

How the data were processed

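Messenger RNA was sequenced from 6 kidney libraries, 3 per group, with groups and replicate numbers taken from the sample titles. The authors deposited whole-number read counts per gene in 1 table, not normalized, with column names given in the labels. Per the submitters' processing notes, the build was GRCm38 and the tools were TopHat2, Cufflinks and DESeq (no versions); no source used here states the counting program, its use of strand or the annotation release. Low counts were removed with filterByExpr of edgeR 4.0.16 (R 4.3.3), libraries were scaled by TMM, and groups were compared with edgeR's quasi-likelihood test on a design with treatment alone (4 residual degrees of freedom). Benjamini-Hochberg adjustment ran over every gene tested, and calls were made at 0.05. Fold changes set CePPy over vehicle. Alternatives were DESeq2 1.42.0, limma-voom (limma 3.58.1), other scaling, no filter, a replicate block and each library left out. Coordinates and exon lengths came from GENCODE M21, which held 22022 of 22036 Ensembl identifiers, and ratios were tested by exact permutation in SciPy 1.17.1. The edgeR script was tested on simulated data. The members and lists were chosen with earlier results of these data known. Named genes were the 10 members, 10 relatives and regulators fixed by name, and up to 3 genes of lowest p from each of the 7 related lists. Some genes were counted in more than 1 list. Besides other NRF2 targets, Prdx1 stands among thioredoxin clients, and Blvrb and Slc48a1 among heme handling genes. Slc7a9 stands among both cystine transport genes and proximal tubule markers. Of a symbol listed under more than 1 identifier, Ddit3, the entry without counts was left out.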

Additional observations from a re-analysis of the deposited data

How the results depend on the processing

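The direction of each of the 10 members was the same under all 12 alternatives, and their median log2 fold change stayed between -0.58 and -0.48. The number of members called by edgeR, 0, was 2 (Hmox1 and Srxn1) with no filter on low counts and 6 with DESeq2; over all genes these settings called 63 and 1026 genes in place of 1. With 1 library left out, edgeR called between 0 and 811 genes and between 0 and 5 members, the highest counts coming without CePPy 2. Whether the replicate numbers pair the samples cannot be settled with 3 libraries per group. Deviations of same-numbered libraries correlated at -0.15, 0.098 and -0.021. The fit with a replicate block, which has fewer residual degrees of freedom, called 0 genes and 0 members. With 1 library left out, the log2 ratio of Txnrd1 to Txnrd2 differed by -0.48 to -0.24, that of Txn1 to Txn2 by -0.24 to -0.092 and that of Txnip to Txn1 by -0.045 to 0.27, the last reversed without CePPy 3. Near-zero fold changes also turned sign: Keap1 ranged from -0.074 to 0.026 (0.0014 without CePPy 1, 0.0081 without CePPy 3 and 0.026 without vehicle 1), Slc3a2 from -0.013 (without CePPy 1) to 0.16, and Nqo2 from -0.13 to 0.00060 (without CePPy 2). The cause was not tested. Among the 10 members, Slc7a11 had the fewest counts, 42 to 121 per library.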
